A study of Homo sapiens with 42 samples.

Results

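The transcriptional response to all-trans retinoic acid (ATRA) was examined in HL-60 cells carrying the first of the study's EZH2 short hairpins, as the difference between the shEZH2#1+ATRA group (3 arrays) and the shEZH2#1 group (3 arrays). These 6 arrays were chosen by their treatment labels, out of 42 in the series. HL-60 is an established human acute myeloid leukemia line of promyelocytic character, and the study asked how loss or inhibition of EZH2 bears on its differentiation by ATRA. Both groups carry the hairpin, delivered by lentivirus and selected with puromycin before the experiment, so that by their labels they differ only in the addition of 0.1 µM ATRA for 3 days. The same contrast was available in cells with a second EZH2 hairpin (shEZH2#2+ATRA against shEZH2#2), in cells with a non-targeting hairpin (Scr+ATRA against Scr), in untransduced cells (WT+ATRA against WT) and in the HL-60 cells of a separate inhibitor experiment (ATRA against untreated), each with 3 arrays a group. Whether the arrays of one population came from 1 or several transductions was not given in the sources used here, and knockdown leaves part of the EZH2 transcript in place.

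ATRA is the ligand of the retinoic acid receptors, which bind DNA as heterodimers with retinoid X receptors and exchange corepressors for coactivators when ligand binds. In promyelocytic cells this switch starts granulocytic maturation, with exit from proliferation, loss of progenitor transcripts, and gain of adhesion receptors, phagocyte oxidase subunits and lysosomal enzymes. EZH2 is the catalytic subunit of Polycomb Repressive Complex 2, which trimethylates lysine 27 of histone H3 at silent genes, among them many genes of differentiation.

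All levels below are log2 values of one probe set per gene, on which a difference of 1 is a 2-fold change, and they compare groups for one gene and not one gene with another. EZH2 itself was read first. Its level was 8.76, 9.18 and 9.18 on the shEZH2#1+ATRA arrays and 9.13, 9.20 and 9.49 on the shEZH2#1 arrays. All 6 arrays lay below the 12 arrays of the Scr and WT populations, which spanned 9.78 to 10.44. The ATRA and untreated arrays of the inhibitor experiment, which carry no hairpin, spanned 9.53 to 9.66, nearer to the shEZH2#1 arrays. Against Scr controls, EZH2 was lower by 0.96 ± 0.15 with ATRA (shEZH2#1+ATRA minus Scr+ATRA, log2 ± SE, adjusted p = 0.000294 by limma). Without ATRA it was lower by 1.09 ± 0.15 (shEZH2#1 minus Scr, log2 ± SE, adjusted p = 0.000115). The differences from WT controls were -1.07 ± 0.15 with ATRA and -0.75 ± 0.15 without (adjusted p = 6.78e-05 and 0.0121 by limma). ATRA itself did not move EZH2 past the test in these cells (log2 difference -0.24 ± 0.15, adjusted p = 0.514), and the array groups overlapped. The array medians were 5.34 to 5.38 with ATRA and 5.35 to 5.47 without, and overlapped (2-sided exact permutation p = 0.8, smallest possible 0.1). shEZH2#1 replicate 1 was one of 6 knockdown-experiment arrays of highest median (5.47 to 5.56, against 5.31 to 5.44 on the other 18). These were also the 6 highest in mean small nucleolar RNA level (7.83 to 8.09 against 7.23 to 7.65). The others were Scr replicates 1 and 2, Scr+ATRA replicate 3, WT+ATRA replicate 3 and shEZH2#2 replicate 2, so the Scr comparisons rest partly on such arrays. The part of shEZH2#1 replicate 1 in the results was not tested, and values without it are given beside several of them. The markers of the HL-60 promyelocyte were present in both groups (mean level of 9 genes 9.73 to 10.26 with ATRA and 9.86 to 10.29 without), and lymphoid and erythroid markers were near the floor of the arrays in both (5.08 to 5.18 and 4.99 to 5.06 with ATRA, 5.01 to 5.08 and 4.99 to 5.04 without).

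ATRA changed 637 of the 7367 genes that passed the expression filter (8.65%), of which 361 were higher (4.9%) and 276 lower (3.75%) in shEZH2#1+ATRA. The limits for such a call were those of the study's methods: adjusted p no higher than 0.05, a fold of 1.3 or more, and a mean level within the top 40% of genes. The rises were larger than the falls in size: the called rises had a median log2 change of 0.86, and 142 exceeded 2-fold, 26 exceeded 4-fold and 11 exceeded 8-fold, while the called falls had a median of 0.66, with 54, 5 and 2 beyond the same folds. The 3 arrays with ATRA did not overlap the 3 without for 356 of the 361 rises and 268 of the 276 falls, beside 29.1% of all expressed genes. The calls were made on these same arrays, which favors such separation. The median change over all expressed genes was -0.00195. With the replicate number as a block and only these 6 arrays in the fit, 430 genes were called, 273 higher and 157 lower, 345 of them among the 637. Without shEZH2#1 replicate 1, 396 genes were called, 221 higher and 175 lower.

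Among genes that passed the expression filter, the largest rises were in genes of lipid uptake, retinoid metabolism, sugar transport and signaling at the membrane. Genes under the filter with rises of like size, such as PTGES and ITGA6, are given further on. CD36, a scavenger receptor for lipids and thrombospondin, read 11.45, 11.09 and 10.74 with ATRA and 6.50, 5.89 and 6.39 without, a 28.5-fold difference. DHRS3, a retinal reductase that is a classical retinoic acid-induced gene, read 11.02, 10.84 and 11.03 with ATRA and 5.59, 5.99 and 6.81 without (28.4-fold). SLC2A5, the fructose transporter GLUT5, read 10.96, 10.92 and 11.09 with ATRA and 6.56, 6.67 and 7.15 without (18.3-fold). In each of these genes the lowest ATRA array stood more than 3 log2 units above the highest array without ATRA. The next were MYBPH (a myosin-binding protein H, 16.9-fold), FGR (a myeloid tyrosine kinase of the Src family, 16.4-fold), THBS1 (thrombospondin 1, a ligand of CD36, 13.5-fold), GNG2 (a G-protein gamma subunit, 12.8-fold), CD38 (the NAD-consuming ectoenzyme long used as a marker of retinoid action in HL-60, 11.6-fold), OLR1 (the oxidized LDL receptor, 9.13-fold) and P2RY13 (an ADP receptor, 8.80-fold). All 10 had an adjusted p of 0.000207 or lower, and GNG2 alone was not called when the probe sets of a gene were averaged.

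Among genes that passed the filter, the largest falls were in a cytoskeletal gene, a lipid transporter and receptors of inflammatory cells. Falls of like size under the filter, such as those of RHEX and GATA2, are given further on. VIM, the intermediate filament protein vimentin, read 6.59, 6.54 and 6.27 with ATRA and 9.13, 9.51 and 9.95 without, an 8.34-fold fall. SPNS3, a member of the spinster family of sphingolipid and lysolipid transporters, read 5.55, 5.19 and 5.99 with ATRA and 8.33, 8.72 and 8.85 without (8.30-fold lower). P2RX7, the ATP-gated channel that drives inflammasome activation, read 6.89, 6.75 and 6.59 with ATRA and 8.66, 9.00 and 9.58 without (5.04-fold lower). The groups were well apart in all 3 genes. They were followed by CST7 (the protease inhibitor cystatin F, 4.40-fold lower), KDM7A (a histone demethylase of H3K9 and H3K27, 4.10-fold), ACY3 (an aminoacylase, 3.94-fold), PTGS2 (the inducible cyclooxygenase, 3.90-fold), CD69 (an early activation antigen, 3.79-fold), C3AR1 (the receptor of complement fragment C3a, 3.70-fold) and CCDC26 (a long non-coding RNA gene, 3.51-fold). PTGS2 rested most on single arrays, with 10.56, 9.19 and 8.24 on the arrays without ATRA and a call that was lost in 4 of 6 cases when one array was left out (adjusted p = 0.239 without shEZH2#1 replicate 1). ACY3 and CCDC26 were not called with the replicate block (adjusted p = 0.0833 and 0.0660).

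**Figure D1:**
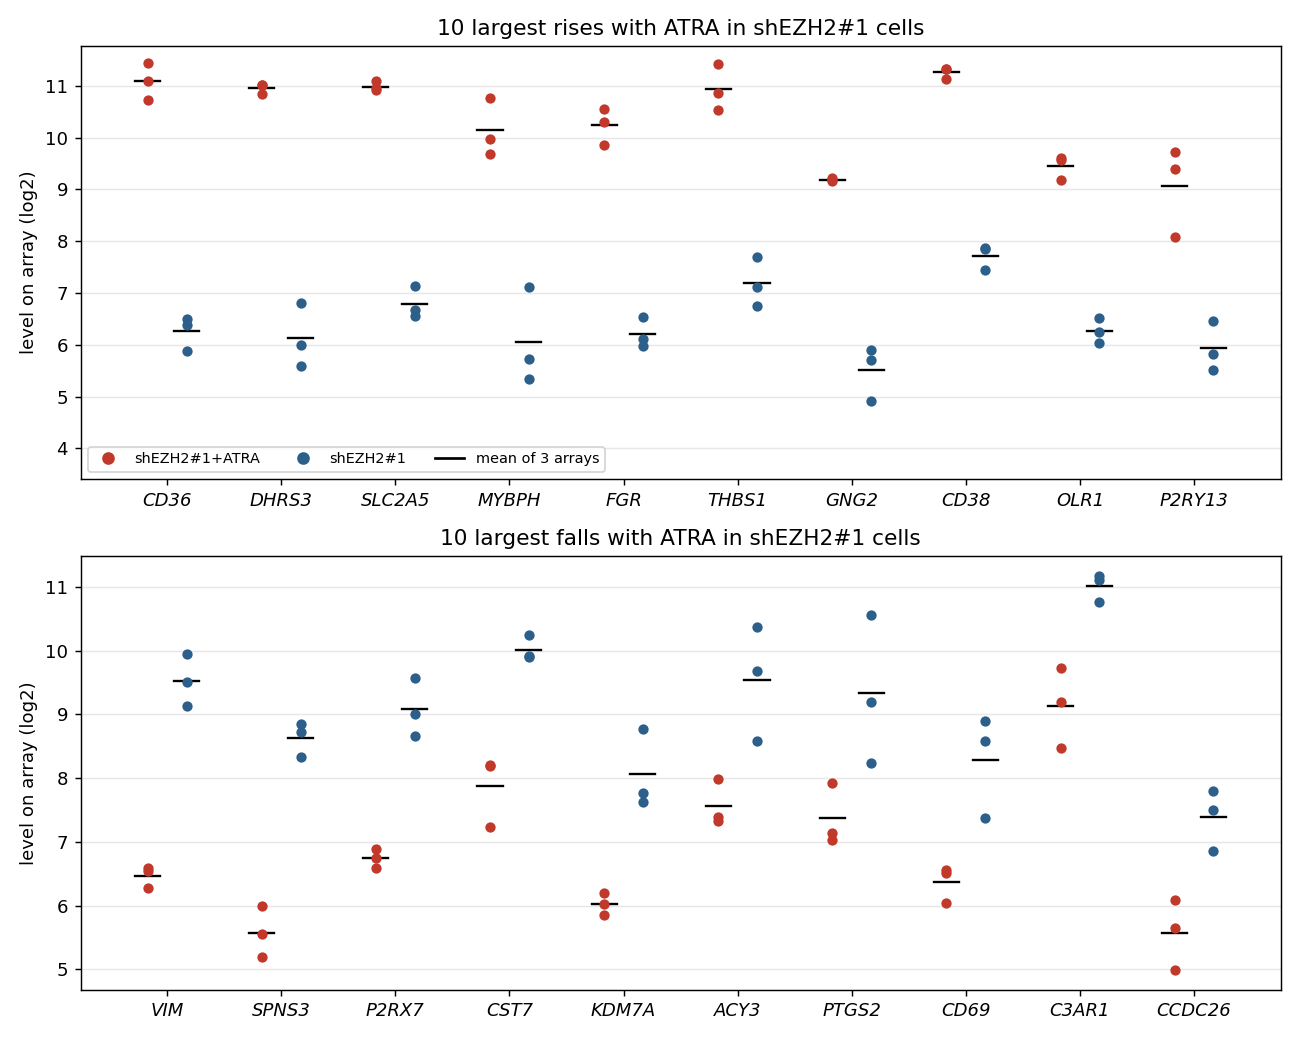
Log2 level of the 10 largest called rises (upper panel) and 10 largest called falls (lower panel) on each array. Arrays of shEZH2#1+ATRA are in red and of shEZH2#1 in blue, 3 arrays each, with bars at the means. The groups do not overlap in any of the 20 genes, which the choice of genes required; CD36 sits at 10.74 to 11.45 with ATRA and at 5.89 to 6.50 without.

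The promoters of these genes were searched for retinoid receptor sequence. The RefSeq windows (GRCh38.p14, 250 bases before to 50 bases after each start) were read on both strands for the nuclear receptor half-site (any of the spellings AGGTCA, then GGGTCA, then AGTTCA, then GGTTCA), for its direct repeats spaced by 1, 2 or 5 bases, and for the ETS-family core GGAAGT. Of the 20 genes, 14 had a window: 9 of the 10 rises and 5 of the 10 falls. None of the 14 held a direct repeat of any of the 3 spacings, which occur in 0.161%, 0.0513% and 0.106% of all genes with windows. A half-site was found for 8 of the 9 rises and 2 of the 5 falls, against 43.7% of all genes, and several of these genes have more than 1 window. The ETS core was found for 3 of the 9 rises and 1 of the 5 falls, against 26.6% of all genes. The 250 bases before the start are shown for CD38 (chr4:15778078-15778327, plus strand), P2RY13 (chr3:151329550-151329799, minus strand) and P2RX7 (chr12:121132626-121132875, plus strand), as a strong rise and as a pair of purine receptors that moved in opposite directions. The half-sites are in capitals and were matched on either strand:
CD38: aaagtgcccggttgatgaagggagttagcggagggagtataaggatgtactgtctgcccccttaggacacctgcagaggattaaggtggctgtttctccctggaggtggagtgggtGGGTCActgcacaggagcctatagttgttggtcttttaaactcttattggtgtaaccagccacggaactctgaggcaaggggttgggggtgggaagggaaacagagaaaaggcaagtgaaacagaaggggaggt
P2RY13: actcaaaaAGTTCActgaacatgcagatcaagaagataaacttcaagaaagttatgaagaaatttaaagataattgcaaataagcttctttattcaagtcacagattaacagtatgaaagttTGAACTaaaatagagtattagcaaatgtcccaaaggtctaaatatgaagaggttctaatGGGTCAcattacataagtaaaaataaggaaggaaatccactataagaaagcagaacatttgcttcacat
P2RX7: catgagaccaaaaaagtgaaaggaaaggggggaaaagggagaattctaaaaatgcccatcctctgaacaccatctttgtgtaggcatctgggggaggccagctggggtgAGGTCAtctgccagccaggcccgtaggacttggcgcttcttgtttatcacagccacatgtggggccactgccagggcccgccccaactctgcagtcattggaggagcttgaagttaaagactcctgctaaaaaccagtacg
CD38 and P2RX7 each held 1 match, beginning 134 and 141 bases before the start, and P2RY13 held 3, at 242, 128 and 69 bases before it. These are matches of letters, and binding was not measured.

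The counts of gene lists from here on stand beside 4.9% called higher and 3.75% called lower among all expressed genes. Genes known to respond to retinoic acid were mostly higher. Of the 16 retinoic acid target genes that were expressed, 9 were called higher and 0 lower, with a median log2 change of 1.19 over the 16. Beside DHRS3, FGR, CD38 and OLR1, they were CCL2 (a monocyte chemokine, 3.87-fold), ICAM1 (the ligand of beta-2 integrins, 2.96-fold), NRIP1 (a ligand-dependent corepressor of nuclear receptors, 2.58-fold), ID2 (an inhibitor of basic helix-loop-helix factors, 2.38-fold) and PRAM1 (an adaptor induced by retinoic acid in myeloid cells, 2.18-fold). ICAM1 lost its call without shEZH2#1 replicate 1 or 2 or shEZH2#1+ATRA replicate 1 or 3 (highest adjusted p = 0.139). ASB2 and IRF1, further targets of ATRA, lay under the expression filter and were picked after their values were seen. ASB2, a ubiquitin ligase subunit, read 6.83, 7.58 and 7.81 with ATRA and 5.15, 5.30 and 5.29 without (adjusted p = 0.000186). IRF1, an interferon regulatory factor, read 7.01, 7.62 and 7.54 with ATRA and 5.66, 5.82 and 6.52 without (adjusted p = 0.000879). Among the 13 expressed genes of retinoid receptors and metabolism, RXRA moved the other way. This retinoid X receptor read 7.61, 7.56 and 7.51 with ATRA and 8.63, 8.88 and 8.90 without, a fall of 1.24 ± 0.15 on the log2 scale (adjusted p = 8.44e-07). RDH10, which oxidizes retinol toward retinoic acid, was also lower (-0.68 ± 0.20), though its call was lost when any one of the 6 arrays was left out (highest adjusted p = 0.178).

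Genes of the mature phagocyte surface, its oxidase and its lysosomes included many called rises and no called fall. Of 30 expressed genes of myeloid surface and adhesion, 12 were called higher and 0 lower (median 0.45). ITGAM, which encodes CD11b, the alpha chain of complement receptor 3 and the usual marker of this differentiation, read 8.28, 8.14 and 7.87 with ATRA and 6.44, 6.56 and 6.67 without, a rise of 1.54 ± 0.28 (adjusted p = 0.00042). Its partner ITGB2 rose by 0.75 ± 0.15 (adjusted p = 0.00106, and 0.0707 with the replicate block). ITGB7 rose 4.93-fold, CD300A, an inhibitory receptor, 3.36-fold and the tetraspanin CD53 2.90-fold. CD14, the monocyte receptor for lipopolysaccharide, was at the floor in both groups (4.34 to 4.37 with ATRA and 4.58 to 4.69 without, adjusted p = 0.155), and SLAMF7 was near it (5.21 to 5.44 with ATRA and 4.85 to 5.16 without, adjusted p = 0.592). The count of 12 became 8 with the block and 8 to 12 when one array was left out, with 8 without shEZH2#1+ATRA replicate 1 or shEZH2#1 replicate 1. The monocyte and macrophage markers, of which 22 were measured and 3 expressed, had a mean level of 5.40 to 5.51 with ATRA and 5.13 to 5.27 without, with CD68 and CCR2 called higher; their part in the result was not tested.

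Of 10 expressed genes in the list for the NADPH oxidase, which makes superoxide in phagocytes, 4 were called higher and 0 lower (median 0.39). Both subunits of its membrane core rose together. CYBB, the catalytic gp91phox subunit, read 13.00, 12.89 and 12.69 with ATRA and 11.26, 11.48 and 11.72 without (1.37 ± 0.24). CYBA, its p22phox partner, read 8.43, 8.28 and 8.31 with ATRA and 6.53, 6.83 and 7.43 without (1.41 ± 0.28). The other called members were PRAM1 and NCF4, the p40phox subunit. PRAM1 is an adaptor, not an oxidase subunit, and was also counted among the retinoic acid targets. NCF4, at a fold of 1.3, sat at the fold threshold and was not called under 10 of the 14 alternatives.

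Of 36 expressed lysosomal genes, 13 were called higher and 0 lower, and 35 of the 36 had a log2 change above 0 (median 0.65). CTSD, the aspartic protease cathepsin D, read 11.62, 11.59 and 11.16 with ATRA and 9.37, 9.94 and 10.32 without (2.99-fold). NPC2, which binds cholesterol in the lysosome, was 2.77-fold higher, CTSZ 2.65-fold and PSAP, the precursor of the saposins that activate sphingolipid hydrolases, 2.60-fold. PSAP was the most even of them, at 11.52 to 11.76 with ATRA and 10.17 to 10.32 without (adjusted p = 6.09e-10). The count was 10 with the block and 10 to 15 when one array was left out. The mean level of the 46 measured members was 8.73 to 8.95 with ATRA and 8.10 to 8.40 without, so that the groups did not overlap.

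Surface receptors moved in both directions. Among 29 expressed receptors for chemoattractants, Fc, complement and growth factors, 10 were called higher and 3 lower (median 0.18). CCR2, the receptor of CCL2, read 9.69, 9.31 and 9.73 with ATRA and 6.56, 7.10 and 7.99 without (5.12-fold higher). CCR1 rose 3.96-fold and CSF3R, the receptor of G-CSF, 2.91-fold. FCER2, the low-affinity IgE receptor CD23, read 10.64, 9.97 and 9.63 with ATRA and 6.44, 7.68 and 8.38 without (5.98-fold). The array at 6.44 is shEZH2#1 replicate 1, without which FCER2 was not called (log2 change 2.05, adjusted p = 0.0742), nor was it with the block (adjusted p = 0.0699). The receptors that fell were P2RX7, C3AR1 and TNFRSF10B, the death receptor DR5 (2.28-fold lower). The number of rises was 5 with the block and 4 to 10 when one array was left out, the lowest without shEZH2#1 replicate 1.

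Signaling genes of myeloid immunoreceptors were also mostly higher. Of 45 expressed genes of Src kinases and myeloid signaling, 14 were called higher and 3 lower (median 0.31), and 13 and 3 with the replicate block. After FGR and GNG2 the largest were TYROBP, the adaptor DAP12 (10.61, 10.49 and 10.18 with ATRA and 7.67, 8.34 and 8.68 without, 4.58-fold), and SLA, an adaptor that dampens receptor signaling (4.13-fold). PIK3R5 and PIK3CG, the regulatory and catalytic subunits of phosphoinositide 3-kinase gamma, rose 3.13-fold and 2.42-fold, and PLCB2, a phospholipase activated by G proteins, 3.07-fold. The falls were FYN, a Src-family kinase, at 7.46, 8.05 and 7.54 with ATRA and 9.61, 9.04 and 9.54 without (3.28-fold lower), RGS16, an inhibitor of G-protein signaling (3.28-fold lower), and PAG1, a membrane adaptor that recruits the inhibitory kinase CSK (-0.79). The falls numbered 2 without shEZH2#1 replicate 1 or shEZH2#1+ATRA replicate 2. FGR and FYN thus moved in opposite directions within one kinase family.

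Granule genes were mixed. Of 15 expressed primary granule genes, 4 were called higher and 1 lower (median 0.38), and of 10 expressed secondary and tertiary granule genes, 2 were called higher and 1 lower (median 0.14). BPI, the bactericidal protein that binds lipopolysaccharide, read 10.80, 10.65 and 8.78 with ATRA and 6.72, 7.55 and 6.91 without (8.08-fold). SERPINB1, an inhibitor of neutrophil proteases, rose 2.84-fold, and CHI3L1, a chitinase-like protein of specific granules, 3.94-fold. CST7 in the first list and TCN1 in the second fell. TCN1, which encodes the vitamin B12 carrier haptocorrin, was 3.43-fold lower but was not called without shEZH2#1 replicate 1, shEZH2#1 replicate 2 or shEZH2#1+ATRA replicate 3 (highest adjusted p = 0.12). The HL-60 promyelocyte markers, with 9 expressed members, had 0 called in either direction (median -0.03).

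Among mediators of inflammation, 5 of 30 expressed genes were called higher and 3 lower (median 0.19). Beside CD36, THBS1, OLR1 and CCL2, ALOX5AP, which presents arachidonate to 5-lipoxygenase, rose 2.60-fold (13.32, 13.28 and 13.40 with ATRA and 11.77, 11.69 and 12.41 without). PTGS2, TNF (2.71-fold lower) and the chemokine CCL5 (1.70-fold lower) fell. TNF was not called with the replicate block (adjusted p = 0.0562), and CCL5 lost its call in 5 of 6 cases when one array was left out. Of 22 expressed interferon response genes, 5 were called higher and 1 lower (median 0.40). IFI6 read 9.26, 8.89 and 8.81 with ATRA and 6.30, 6.54 and 6.94 without (5.26-fold), and SAMHD1, a deoxynucleotide hydrolase, was 3.77-fold higher. GBP2, an interferon-induced GTPase, was the fall (2.70-fold), carried by shEZH2#1 replicate 1 at 8.69 against 7.27 and 6.63 on the other arrays without ATRA (adjusted p = 0.135 without it).

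Several genes of the amino acid response fell. This pathway is switched on by the factor ATF4 when amino acids are short or the endoplasmic reticulum is stressed, and it drives amino acid synthesis and import. Of 45 expressed genes of the amino acid and unfolded protein response, 10 were called lower and 1 higher (CRELD2, an endoplasmic reticulum chaperone), with a median of -0.33. DDIT4, an inhibitor of mTORC1 induced by stress, read 8.28, 8.97 and 8.84 with ATRA and 10.29, 9.98 and 10.24 without (2.77-fold lower, adjusted p = 0.00284). CTH, which makes cysteine from cystathionine, read 6.94, 7.60 and 6.81 with ATRA and 8.43, 8.28 and 9.11 without (2.81-fold lower). TRIB3, a pseudokinase that feeds back on ATF4, was 2.46-fold lower and DDIT3, the factor CHOP, 2.05-fold, though DDIT3 was not called without shEZH2#1 replicate 1 (log2 change -0.73, adjusted p = 0.107). ASNS, asparagine synthetase, read 9.84, 10.00 and 9.16 with ATRA and 10.33, 10.37 and 10.87 without (1.81-fold lower, adjusted p = 0.00149). The others were the amino acid transporter pair SLC7A5 and SLC3A2, ATF5, and the serine and folate enzymes PSAT1 and MTHFD2. ATF4 was lower by 0.33 with an adjusted p of 0.0194, which is under the fold threshold. The count of falls was 3 with the replicate block. Of the 10, only TRIB3 and DDIT4 kept their call there (adjusted p = 0.0301 and 0.0213), and the remaining fall was not among the 10. ASNS had 0.175 with the block, CTH 0.0641, DDIT3 0.0695 and each of the other 5 more than 0.05. In the 6 fits that left out one array the falls numbered 6 to 11, the lowest without shEZH2#1+ATRA replicate 3. The call was lost in 2 of those 6 cases for SLC7A5 and MTHFD2, in 3 for SLC3A2 and in 4 for PSAT1 and CRELD2. The same list had 2 falls in shEZH2#2 cells, 0 calls in Scr and 0 in WT cells, but the difference of response was not past the test for any member (for ASNS against Scr cells, -0.98 ± 0.25 with an adjusted p of 0.187).

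Genes of proliferation changed little. Of 60 expressed mitotic genes 0 were called higher and 1 lower, the securin PTTG1 (-0.43), and of 51 expressed genes of DNA replication 0 were called higher and 1 lower, TIPIN (-0.41), with medians of 0.03 and -0.04. Neither PTTG1 nor TIPIN was called with the replicate block (adjusted p = 0.0791 and 0.0749), and their calls were lost in 5 and 3 of 6 cases when one array was left out. Of 51 expressed genes of MYC and ribosome biogenesis 0 were called in either direction, and 8 had a change above 0 (median -0.26). MYC, which is amplified in HL-60, read 10.88, 11.06 and 10.64 with ATRA and 10.83, 11.64 and 11.40 without, and the groups overlapped (adjusted p = 0.54). At the entry to the cell cycle 4 of 24 expressed genes were called lower and 0 higher, with 3 lower in the block fit and 2 without shEZH2#1 replicate 2 or shEZH2#1+ATRA replicate 3. GADD45A, a stress-induced growth arrest gene, was 2.15-fold lower, and CCND2, cyclin D2, read 10.51, 10.32 and 10.12 with ATRA and 11.23, 11.09 and 11.10 without (1.78-fold lower). The others were CCND1, cyclin D1 (-0.51), and E2F5 (-0.77), whose calls were lost in 5 and 2 of 6 cases when one array was left out; CCND1 had an adjusted p of 0.0724 with the block. Among survival genes, BCL2 read 7.69, 7.58 and 7.80 with ATRA and 8.61, 9.50 and 9.33 without (2.74-fold lower), and its relative BCL2A1, also antiapoptotic, rose 3.24-fold.

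Progenitor genes were divided, with 4 of 16 expressed members lower and 3 higher (median -0.14). With the replicate block 5 were lower and 3 higher. Leaving out one array gave 2 to 3 lower and 2 to 3 higher, so the count of 4 falls was reached in none of those fits. BCL11A, a transcriptional repressor, read 7.58, 7.53 and 6.97 with ATRA and 8.65, 8.80 and 8.77 without (2.60-fold lower), and WT1, the Wilms tumor transcription factor, was 2.16-fold lower. FLT3, a cytokine receptor of progenitors, was 1.83-fold higher, with a call that was lost in 5 of 6 cases when one array was left out. LEF1, MLLT3 and SMYD2 did not pass the test (log2 change -0.53, -0.22 and 0.07), though LEF1 had an adjusted p of 0.0465 with the replicate block, against 0.11 without it. Chromatin regulators of silencing were even: of 13 expressed Polycomb Repressive Complex 2 genes and 19 of H3K9 methylation, 0 were called in either direction, with EZH1 at -0.13, EHMT1 at -0.12, EHMT2 at -0.01 and KDM1A at -0.02.

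**Figure D2:**
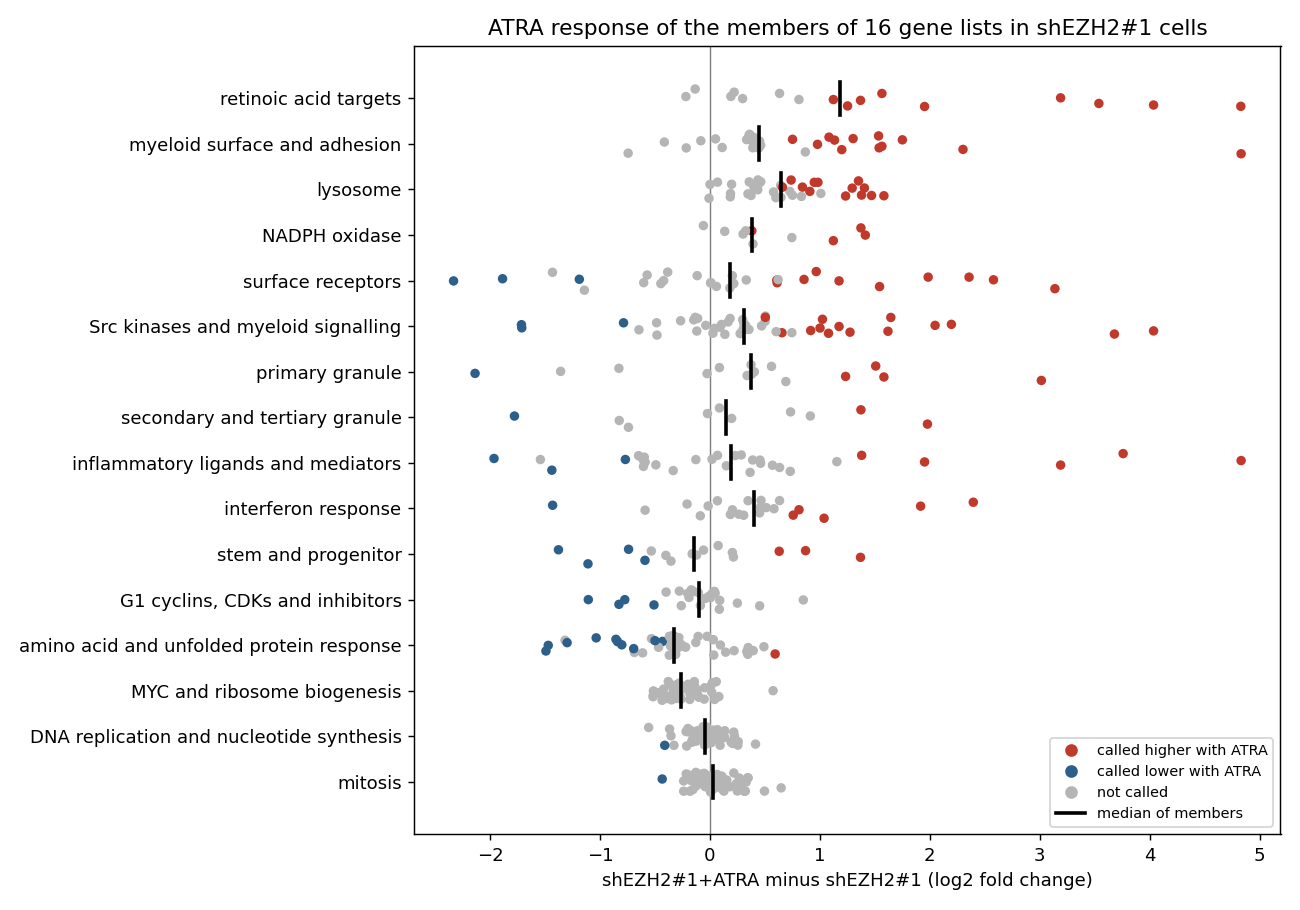
Log2 fold change (shEZH2#1+ATRA minus shEZH2#1) of each expressed member of 16 gene lists, with called rises in red, called falls in blue, other members in grey and a bar at the median. Retinoic acid targets have the highest median over expressed members (1.19) of the lists shown. Over all measured members their median is 0.40, below the 0.45 of lysosomal genes. Lysosomal genes lie above 0 for 35 of 36 expressed members, and mitotic genes stay close to 0.

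The responses to ATRA in the other populations were set beside this one. Each comparison has its own control arrays, so that no array is shared between them. Of the 361 genes that rose in shEZH2#1 cells, 168 were also called higher in Scr cells (46.5% of the 361 and 60.4% of 278), 90 in WT cells (24.9% and 91.8% of 98) and 238 in shEZH2#2 cells (65.9% and 72.8% of 327). Of the 276 falls, 55 were called lower in Scr cells (19.9% and 61.8% of 89), 46 in WT cells (16.7% and 78.0% of 59) and 158 in shEZH2#2 cells (57.2% and 54.7% of 289). Of all expressed genes, ATRA changed 8.36% in shEZH2#2 cells (4.44% higher, 3.92% lower), 4.98% in Scr cells (3.77% and 1.21%), 2.13% in WT cells (1.33% and 0.801%) and 13.1% in the inhibitor experiment (5.23% and 7.85%). The genes shared by all 4 populations of the knockdown experiment numbered 99, with 73 rises and 26 falls, and CD36, DHRS3, SLC2A5, VIM and SPNS3 were among them. In no population of the knockdown experiment was a called gene of shEZH2#1 cells called in the opposite direction, and in the inhibitor experiment 2 were: FLT3 (0.87 against -0.99) and TRHDE (0.42 against -0.55), of which TRHDE lost its call in shEZH2#1 cells in 6 of 6 cases when one array was left out (highest adjusted p = 0.232). Across the 7367 genes, the log2 changes in shEZH2#1 cells had a Pearson correlation of 0.873 with those in shEZH2#2 cells, 0.757 with Scr, 0.660 with WT and 0.669 with the inhibitor experiment, as a description over genes.

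The sizes of the changes were set side by side for the same genes. The 361 rises, with a median of 0.86 there, had a median of 0.60 in Scr, 0.39 in WT and 0.72 in shEZH2#2 cells, and the 276 falls, with a median of -0.66, had -0.31, -0.30 and -0.52. The genes were chosen for their change in shEZH2#1 cells, which favors larger values there, and these medians were given no test. For CD36 the change was 4.83 in shEZH2#1 cells, 4.29 in shEZH2#2, 3.76 in Scr and 3.48 in WT cells. For ITGAM it was 1.54 in shEZH2#1 cells, 1.95 in shEZH2#2, 0.27 in Scr and 0.89 in WT cells. Neither gene was among those whose response differed by test from that in Scr, WT or shEZH2#2 cells. Of the 637 genes, 165 were called in no other population, and 0 of the 165 had a response that differed by test from that of Scr, WT or shEZH2#2 cells.

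**Figure D3:**
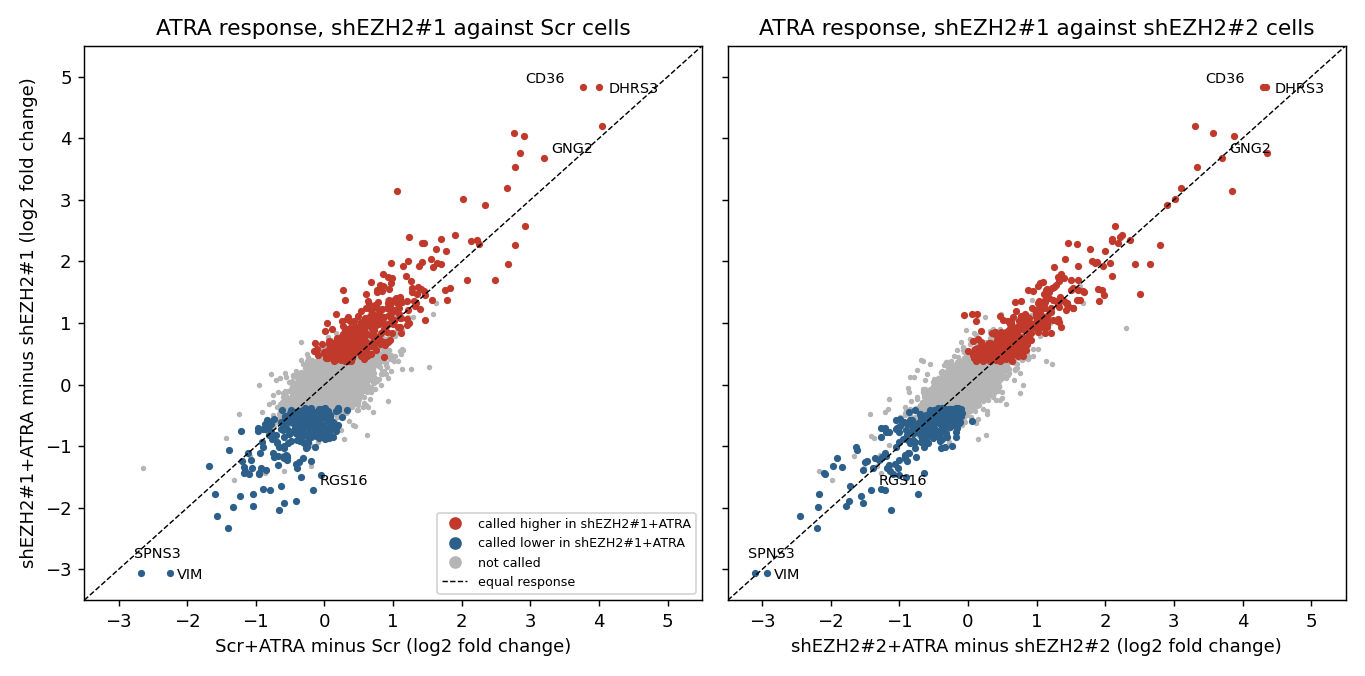
Log2 fold change with ATRA of the 7367 expressed genes in shEZH2#1 cells (vertical axes) against Scr cells (left) and shEZH2#2 cells (right), with the genes called in shEZH2#1 cells in red (higher) and blue (lower) and a dashed line at equal response. Points lie along the line with Pearson correlations of 0.757 and 0.873, and RGS16 lies off it in the Scr panel.

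The difference between responses was tested gene by gene with an interaction term. Between shEZH2#1 and Scr cells 1 expressed gene differed (0.0136%), between shEZH2#1 and WT cells 2 (0.0271%) and between shEZH2#1 and shEZH2#2 cells 0 (0%). At an unadjusted p under 0.05 there were 620, 473 and 134 expressed genes. RGS16, which turns off G-protein signals, read 6.89, 7.78 and 7.66 in shEZH2#1+ATRA and 9.00, 9.15 and 9.32 in shEZH2#1 cells, against 8.05 to 8.72 in Scr+ATRA and 8.40 to 9.12 in Scr cells. Its fall of 1.71 in shEZH2#1 cells stood beside a change of -0.17 in Scr cells (difference -1.54 ± 0.29, adjusted p = 0.0309), and it also fell in WT (-1.07) and shEZH2#2 cells (-1.41). AGO1, an Argonaute protein of small RNA silencing, rose by 1.80 in shEZH2#1 cells, beside 0.51 in WT cells (difference 1.29 ± 0.27, adjusted p = 0.0388), with 0.85 in Scr and 1.35 in shEZH2#2 cells. FSCN1, the actin-bundling protein fascin, fell by 1.16 in shEZH2#1 cells, beside -0.26 in WT cells (difference -0.90 ± 0.18, adjusted p = 0.0314), with -0.55 in Scr and -0.92 in shEZH2#2 cells. None of these 3 differences was called with the replicate block, nor in a fit to the arrays of the compared groups alone.

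With the expression filter lifted, 10 genes differed against Scr, 15 against WT and 3 against shEZH2#2 cells, RGS16, AGO1 and FSCN1 included. Several of the added genes were near the floor of the arrays without ATRA. Of 11050 genes under the filter, 268 passed the p and fold thresholds for ATRA in shEZH2#1 cells (2.43%), 155 higher and 113 lower. PTGES, the inducible prostaglandin E synthase, read 9.54, 9.59 and 10.08 in shEZH2#1+ATRA and 5.63, 5.62 and 5.49 in shEZH2#1 cells, a 17.9-fold rise. In Scr cells its levels were 6.17 to 6.76 with ATRA and 5.68 to 5.78 without (difference of responses 3.35 ± 0.43, adjusted p = 5.58e-05). In the HL-60 cells of the inhibitor experiment, which carry no hairpin, PTGES rose by 4.63. FBP1, the fructose bisphosphatase of gluconeogenesis, read 6.83, 6.29 and 7.20 in shEZH2#1+ATRA and 4.55, 4.47 and 4.24 in shEZH2#1 cells, and its response exceeded that in Scr (1.99 ± 0.25, adjusted p = 5.58e-05), WT (1.76, adjusted p = 0.000681) and shEZH2#2 cells (1.35, adjusted p = 0.0476). SCUBE1, a secreted and membrane-bound protein of platelets and endothelium, read 7.64, 7.64 and 7.86 in shEZH2#1+ATRA and 6.10, 6.17 and 6.31 in shEZH2#1 cells, beside 5.59 to 6.76 over all 24 arrays of the other populations considered here. ITGA6, an integrin that binds laminin, rose 15.6-fold (9.25, 9.38 and 9.11 with ATRA and 5.38, 5.33 and 5.13 without), more than in Scr by 1.96 ± 0.38 (adjusted p = 0.0332). LILRA5, an activating leukocyte receptor, rose by 3.22 in shEZH2#1 and by 3.61 in shEZH2#2 cells, beside 0.79 in Scr and 0.66 in WT cells. These genes were chosen after their values were seen.

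**Figure D4:**
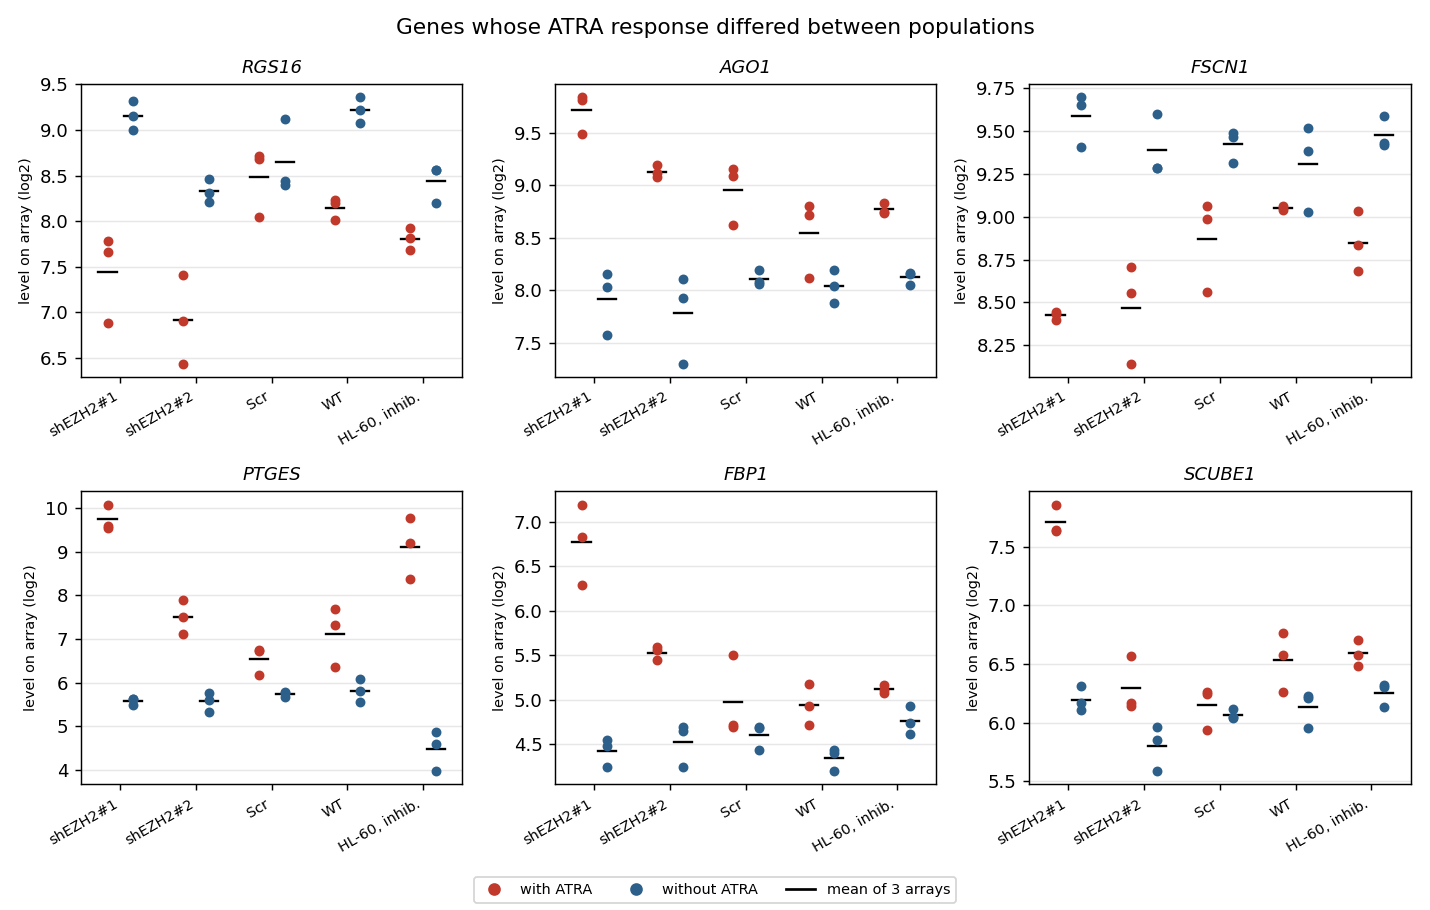
Log2 level on each array of 6 genes whose ATRA response differed by test between shEZH2#1 and Scr or WT cells, in 5 populations (3 arrays a group, with ATRA in red to the left and without in blue, bars at means; the last population is the HL-60 cells of the inhibitor experiment). RGS16, AGO1 and FSCN1 passed the expression filter, while PTGES, FBP1 and SCUBE1 lay under it; FBP1 and SCUBE1 are highest in shEZH2#1+ATRA.

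CLC, EPX and PRG2, which encode proteins of eosinophils, set the shEZH2#1 population apart from the other populations, with and without ATRA. CLC, the Charcot-Leyden crystal protein galectin-10, read 9.41, 8.15 and 6.77 in shEZH2#1+ATRA and 7.71, 8.38 and 6.54 in shEZH2#1 cells, where the 24 other arrays spanned 4.14 to 5.54. EPX, eosinophil peroxidase, read 7.19, 6.35 and 5.10 in shEZH2#1+ATRA and 7.03, 6.96 and 6.22 in shEZH2#1 cells, against 3.65 to 4.84 on the others. PRG2, the eosinophil major basic protein, read 7.37, 6.32 and 6.48 in shEZH2#1+ATRA and 8.59, 8.22 and 7.24 in shEZH2#1 cells, against 5.06 to 6.06 on the others. All 6 arrays stood above all 24 others in each of the 3 genes. Against shEZH2#2 cells, which share the reduced EZH2 level, the shEZH2#1 cells without ATRA were higher by 2.84 ± 0.43 for CLC, 2.86 ± 0.27 for EPX and 2.37 ± 0.23 for PRG2 (adjusted p = 0.000294, 1.10e-07 and 1.13e-07). RNASE2, the eosinophil-derived neurotoxin, which other myeloid cells also express, did not follow them: it read 10.66, 10.43 and 10.31 in shEZH2#1+ATRA and 9.84, 9.77 and 10.58 in shEZH2#1 cells, overlapping the 24 others at 8.79 to 10.36, and did not pass the test against shEZH2#2 cells without ATRA (0.49, adjusted p = 0.533). Of the other markers of these cells, CPA3, HDC, FCER1A, IL5RA, SIGLEC8 and KIT stayed between 3.96 and 4.75 in both groups. The mean level of the 14 measured list members was 5.33 to 5.75 with ATRA and 5.66 to 5.89 without. In bulk RNA a small subset of cells with high levels and a low level in every cell cannot be told apart.

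ATRA lowered part of this set. GATA2, a transcription factor of progenitors, mast cells and eosinophils, read 5.99, 6.02 and 5.84 in shEZH2#1+ATRA and 7.96, 8.51 and 7.74 in shEZH2#1 cells (4.35-fold lower, adjusted p = 3.17e-09). Without ATRA, shEZH2#1 cells exceeded Scr by 1.09 ± 0.19 and WT by 1.72 ± 0.19 in GATA2, and with ATRA the differences were 0.18 and 0.07 (adjusted p = 0.73 and 0.953). Its fall was larger than in WT cells (-0.47, difference -1.66 ± 0.27, adjusted p = 0.00402). GATA2 also fell in Scr cells, from a mean of 6.98 to 5.77, and in shEZH2#2 cells, from 6.75 to 5.48. RHEX, a regulator of erythropoietin receptor signaling, read 6.20, 5.41 and 5.07 in shEZH2#1+ATRA and 8.04, 8.61 and 8.23 in shEZH2#1 cells. This 6.65-fold fall was larger than in WT cells (difference -2.42 ± 0.35, adjusted p = 0.000681). RHEX also fell in Scr cells, from a mean of 6.16 to 5.09, and in shEZH2#2 cells, from 6.01 to 4.99. IL1RL1, the IL-33 receptor of mast cells, basophils and eosinophils, read 4.92, 4.74 and 4.54 in shEZH2#1+ATRA and 6.28, 6.71 and 5.01 in shEZH2#1 cells, against 4.49 to 4.97 on the 24 others (adjusted p for ATRA = 0.000263, and 0.0797 with the block). PRG2 fell by 1.30 ± 0.23 (adjusted p = 0.000274) with overlapping groups, while CLC (0.56, adjusted p = 0.603) and EPX (-0.53, adjusted p = 0.341) did not pass the test. GATA2, RHEX, IL1RL1, PRG2, CLC and EPX lay under the expression filter and, but for GATA2, were chosen after their values were seen.

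**Figure D5:**
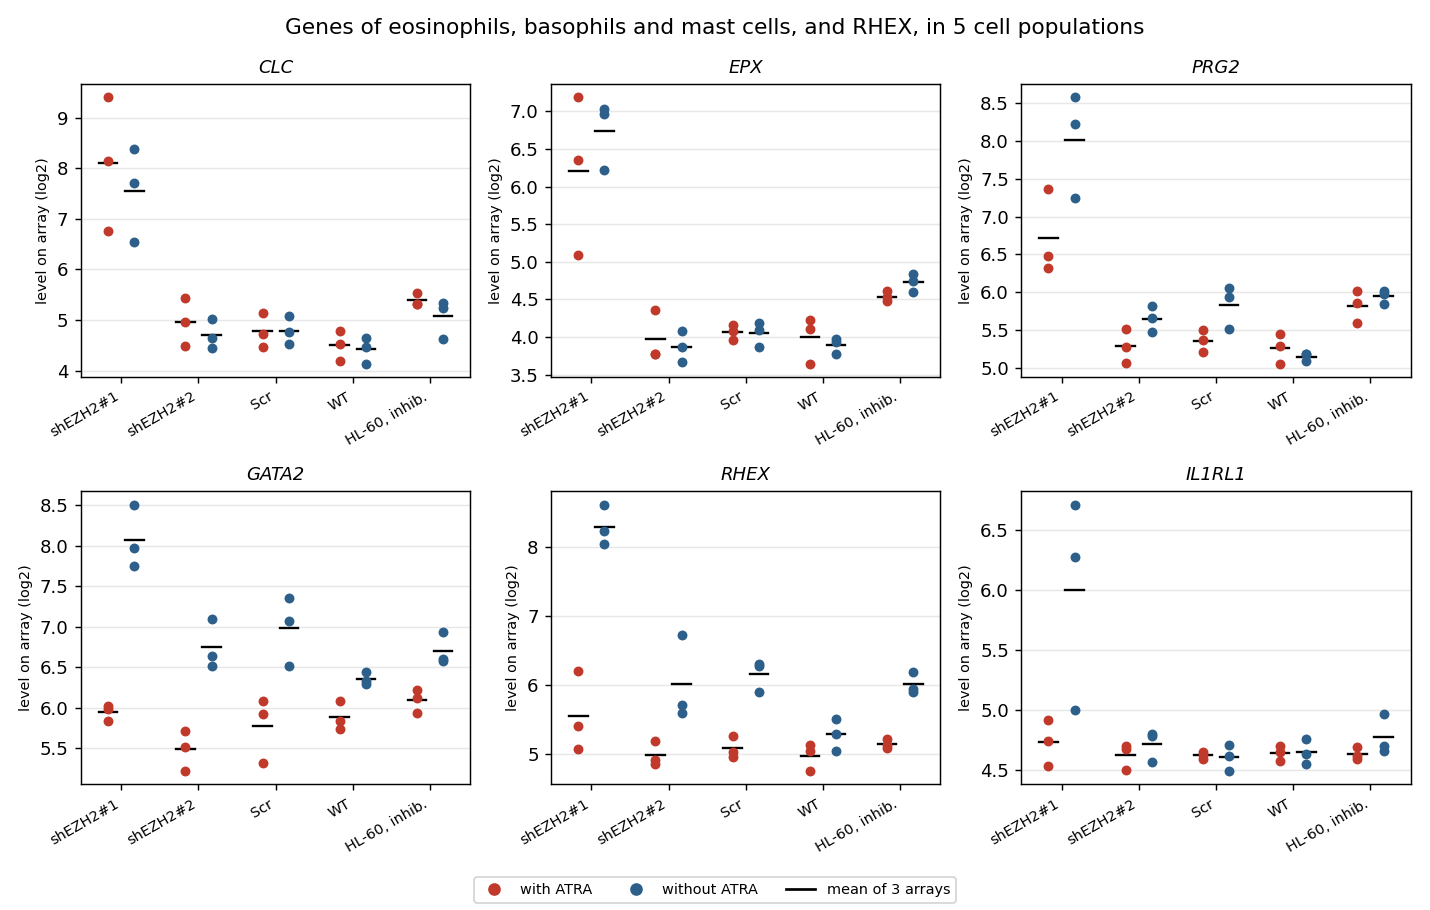
Log2 level on each array of CLC, EPX, PRG2, GATA2, RHEX and IL1RL1 in 5 populations (3 arrays a group, with ATRA in red to the left and without in blue, bars at means; the last population is the HL-60 cells of the inhibitor experiment). CLC, EPX and PRG2 are above all other arrays in both shEZH2#1 groups. In shEZH2#1+ATRA, GATA2, RHEX and IL1RL1 lie in the range of the other 24 arrays, taken with and without ATRA. RHEX and IL1RL1 on shEZH2#1+ATRA replicates 1 and 2 stay above every ATRA array of the other populations.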

How the data were processed

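Total RNA was hybridized to Affymetrix Human Gene 1.0 ST arrays, with 14 groups of HL-60 cells in 3 biological replicates. The authors normalized the scans with GCRMA and corrected them for batch and date in Partek (versions not given in the sources used here), and deposited log2 values for 33297 probe sets; the raw scans were not used. This correction may shift levels between dates. Gene symbols came from the platform annotation: 19460 probe sets had 1 symbol, 1754 several and 12083 none, and only those with 1 were used, with the brightest probe set for each of 18417 genes.

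A model with one mean per group, over all 42 arrays, was fitted in limma 3.58.1 (R 4.3.3), and p-values were adjusted over 18417 genes by Benjamini-Hochberg. A call needed an adjusted p of 0.05 or less, a fold of 1.3 or more and a mean level in the top 40% (7367 genes, lowest mean 6.88). Differences between responses were interaction contrasts in the same fit. Array number, with no count depth, limits the precision. The fit was tested on simulated data with independent noise on each array. Such data lack the shared deviation of same-numbered arrays described next, so that test does not cover it.

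Same-numbered shEZH2#1+ATRA and shEZH2#1 arrays deviated together (correlations of 0.128, 0.201 and 0.211 over 18417 genes). The main fit did not pair them. Only the alternative with a replicate block treated the numbers as pairing the arrays, from the data and not from a stated shared day. The block uses only these 6 arrays.

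The named genes were the 10 largest called rises and falls without overlap of arrays, up to 4 called members of each list (all where 5 or fewer were called), genes the study discusses, and genes whose response differed between populations; the remaining named genes were picked after their values were seen. The members and the 34 gene lists were chosen with earlier results of these data known. Sequences came from RefSeq promoter windows of GRCh38.p14. Alternatives were other array sets, a replicate block, quantile or median scaling, the array median as covariate, other filters and fold thresholds, moderated variants, and each array left out.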

Additional observations from a re-analysis of the deposited data

Results flagged for a closer look

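The response of 3 expressed genes differed by the interaction test between shEZH2#1 cells and a control population. For RGS16 the response in shEZH2#1 cells minus that in Scr cells was -1.54 (log2, adjusted p = 0.0309), with an adjusted p of 0.0742 over expressed genes only and of 0.936 in a fit to the compared arrays alone. For AGO1 the response in shEZH2#1 cells minus that in WT cells was 1.29 (adjusted p = 0.0388), and 0.90 without the 6 knockdown arrays of highest median (adjusted p = 0.243). For FSCN1 the response in shEZH2#1 cells minus that in WT cells was -0.90 (adjusted p = 0.0314), and -0.99 without those arrays (adjusted p = 0.0343).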

How the results depend on the processing

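Among the 129 called named genes, 81 kept their call in all 6 fits that left out one array, 68 kept it under those and all 14 other alternatives, and 0 changed direction. The total of 637 genes (361 higher, 276 lower) became 374 (237 and 137) with only the compared arrays in the fit and 430 (273 and 157) with the replicate block, which has fewer residual degrees of freedom. Falls numbered 179 with arrays centered on their medians, 427 with the array median as a covariate and 165 at a fold of 1.5 or more. Leaving out one array gave totals of 396 to 747, with 221 to 429 rises and 166 to 318 falls. The lowest total came without shEZH2#1 replicate 1, and falls numbered 166 without shEZH2#1 replicate 2 or shEZH2#1+ATRA replicate 1. The unpaired t-test that the study names for its experiments in general gave 872 genes at its own threshold. After Benjamini-Hochberg it gave 0 (0 higher, 0 lower). For the arrays the study names false discovery rate testing across conditions, which this t-test does not repeat.

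Differences of response were less stable. Against Scr cells, the 1 gene became 0 with the block, with only the compared arrays, with only the knockdown experiment, with centered arrays, with adjustment over expressed genes and without the 6 arrays of highest median, but 3 with quantile normalization, 8 with the covariate and 10 with no expression filter. Leaving out one array gave 0 to 74, with 74 without Scr replicate 3 and 11 without shEZH2#1 replicate 3. Against WT cells, the 2 genes became 0 with the block, the compared arrays, the knockdown experiment, centered arrays or adjustment over expressed genes, 1 without the 6 arrays, 4 with quantile normalization or the covariate and 15 with no expression filter, with 0 to 3 when one array was left out. Against shEZH2#2 cells, the count was 0 except for 3 with no expression filter. The cause of these shifts was not tested. With 3 arrays a group, a gene near the floor of the arrays has only a blurred level, and a small fold may not pass.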

Other observations

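SLC2A3, the high-affinity transporter GLUT3, read 9.95, 10.08 and 9.33 with ATRA and 10.87, 11.12 and 10.89 without (log2 change -1.18 ± 0.28, adjusted p = 0.0069) in shEZH2#1 cells, but was not called without shEZH2#1+ATRA replicate 3 (adjusted p = 0.076). Within the list of 25 expressed genes of glucose transport and glycolysis, 3 were called higher and 2 lower, and without that array 0 were lower. Beside SLC2A5 the rises were TKT (0.57) and PGD (0.82), of which PGD lost its call in 5 of 6 cases when one array was left out and with the replicate block (adjusted p = 0.0536). Of 32 expressed genes of the cytoskeleton and nuclear envelope, 6 were called higher and VIM was the 1 fall; without shEZH2#1 replicate 1 the count of rises was 1. LBR, the lamin B receptor that shapes the granulocyte nucleus, read 11.82, 11.63 and 11.67 with ATRA and 10.87, 11.11 and 11.03 without (0.70 ± 0.12).

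Myeloid transcription factors were divided, with 3 of 34 expressed members higher and 4 lower. With the replicate block the counts were 2 and 3, and leaving out one array gave 1 to 4 higher and 2 to 5 lower. TFEC, a factor of macrophages, read 8.56, 8.55 and 9.17 with ATRA and 7.62, 7.55 and 7.65 without (1.15 ± 0.27, adjusted p = 0.0727 without shEZH2#1+ATRA replicate 3), and RUNX3 was higher by 0.60. The falls were FOSL2 (-0.75), JUNB (-0.47), HHEX (-0.78) and CEBPG (-0.65), a partner of ATF4. The array of highest CEBPG level, 10.32, was shEZH2#1 replicate 1, against 9.58 and 9.51 on the other arrays without ATRA. Without that array RUNX3, JUNB, HHEX and CEBPG were not called (adjusted p = 0.159, 0.0933, 0.31 and 0.0695), and with the replicate block RUNX3, JUNB and CEBPG were not (0.0543, 0.0657 and 0.131), while FOSL2 was called with the block and in all 6 fits that left out one array. ELOVL6, a fatty acid elongase, was the 1 called member among 27 expressed genes of sterol and fatty acid synthesis (1.15 ± 0.23), and 24 of the 27 had a change above 0.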
